A study of Homo sapiens with 4 samples.

Results

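Genes of focal adhesions and of the proteins that bind actin filaments were followed in the human fibroblast line BJ-TE, which descends from the BJ foreskin fibroblasts, through a list of 49 gene symbols. A probe set was counted for a gene when the annotation of the array gave it that symbol and no other. This found 86 of the 22277 probe sets on the array, for 44 of the 11963 genes that it names singly. No probe set carried the name of FHL1, FLNA, FLNC, TPM3 or CFL2, which were not analysed here. All 44 genes lay above the brightness filter used for testing, an intensity of about 111, with 76 of their 86 probe sets. There were 4 groups with 1 array each: cells with a control hairpin (ns shRNA) at 40% confluence, cells with a hairpin against the transcription factor p73 (p73 shRNA) at 40%, and both at 100%. Every group therefore carried a hairpin, and 1 line with 1 named p73 hairpin was measured. The study is titled as one of p73 and malignant transformation, and its design names both stages of confluence.

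Focal adhesions are the plaques through which integrins, bound to the matrix outside, hold the ends of actin bundles inside the cell. Talin, vinculin, paxillin and zyxin build the plaque, alpha-actinin and tropomyosin order the bundles, non-muscle myosin II pulls on them, and cofilin, profilin, gelsolin, capping protein and the Arp2/3 complex set how filaments grow and turn over. Serum response factor (SRF) is a transcription factor that binds a DNA element called the CArG box; with its actin-sensing cofactors of the myocardin-related (MRTF) family it drives many of these genes. Fibroblasts are rich in this machinery, which responds to spreading and tension.

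No group was repeated and the labels do not say whether the cultures were separate, so p-values reflect only these 4 arrays, and their number limits the precision. The error behind them is how far the hairpin ratio differed between the stages, in the main fit shared among genes of like brightness. It is not a spread between repeats. TP73 itself has 1 probe set, which read 1.68 with ns shRNA and 2.09 with the p73 hairpin in sparse cells and 1.65 and 2.04 in confluent cells, all under the 4th percentile of their array, so it gives no check on the hairpin labels. Stage of confluence and any difference in handling between the stages cannot be told apart. All 10 fibroblast markers lay above the filter, with summed intensities of 74303 to 90270 per array. So did 5 of 8 markers of smooth muscle and pericytes (2419 to 3720), 1 of 7 epithelial (2595 to 3406) and 1 of 4 melanocyte markers (352 to 507). The last pair were KRT18, at 2425 to 3222, and MITF, at 256 to 411, which made up most of their sums. Above the filter were 0 of 5 endothelial (74.3 to 122) and 0 of 5 measured blood cell markers (51.8 to 144). The 99th percentile of intensity was 11420 with ns and 13157 with p73 shRNA in sparse cells, and 10196 and 10869 in confluent ones, so the bright end of the scale was higher on both arrays at 40%. The ratio of 3' to 5' signal of the beta-actin control probes was 1.24 and 1.09 at 40% and 1.47 and 1.38 at 100%, and its part in the confluence results was not tested.

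Confluence was the larger of the sources of difference. In a model with confluence and hairpin as additive terms, 18 of the 44 genes fell and 6 rose from 40% to 100% confluence, while 20 did not pass (limma, Benjamini-Hochberg adjusted p below 0.05 over 6759 genes). The 18 are 40.9% of the members, where 16.1% of all genes tested fell, and the 6 are 13.6%, where 20.4% rose. The kelch-repeat actin-binding protein ENC1, the plaque protein zyxin and SRF itself were among those that fell, and the myosin heavy chain MYH10 and the LIM protein TES among those that rose. The median member had a log2 ratio of 100% over 40% of -0.24 as the average of both hairpins, against 0.01 over all genes tested. In bulk RNA, fewer cells of a type and less RNA per cell cannot be told apart.

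The strength of these calls differed. With the error estimated without its dependence on brightness, 9 falls and all 6 rises held (limma), where 12.3% and 18.3% of all genes were called; the calls of PDLIM5, ACTN4, TPM4, CFL1, DSTN, PFN2, ARPC1A, EZR and RDX ended. After quantile normalization the falls of CFL1 and DSTN and the rise of TLN1 no longer passed, and the median member was at -0.15. Of the 893 genes tested that were at least as bright as the median member, 25.5% fell and 13% rose, with a median of -0.11, so bright genes as a whole were lower at confluence, as the top of the intensity scale was; of the 22 members in that range 9 (40.9%) fell.

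**Figure D1:**
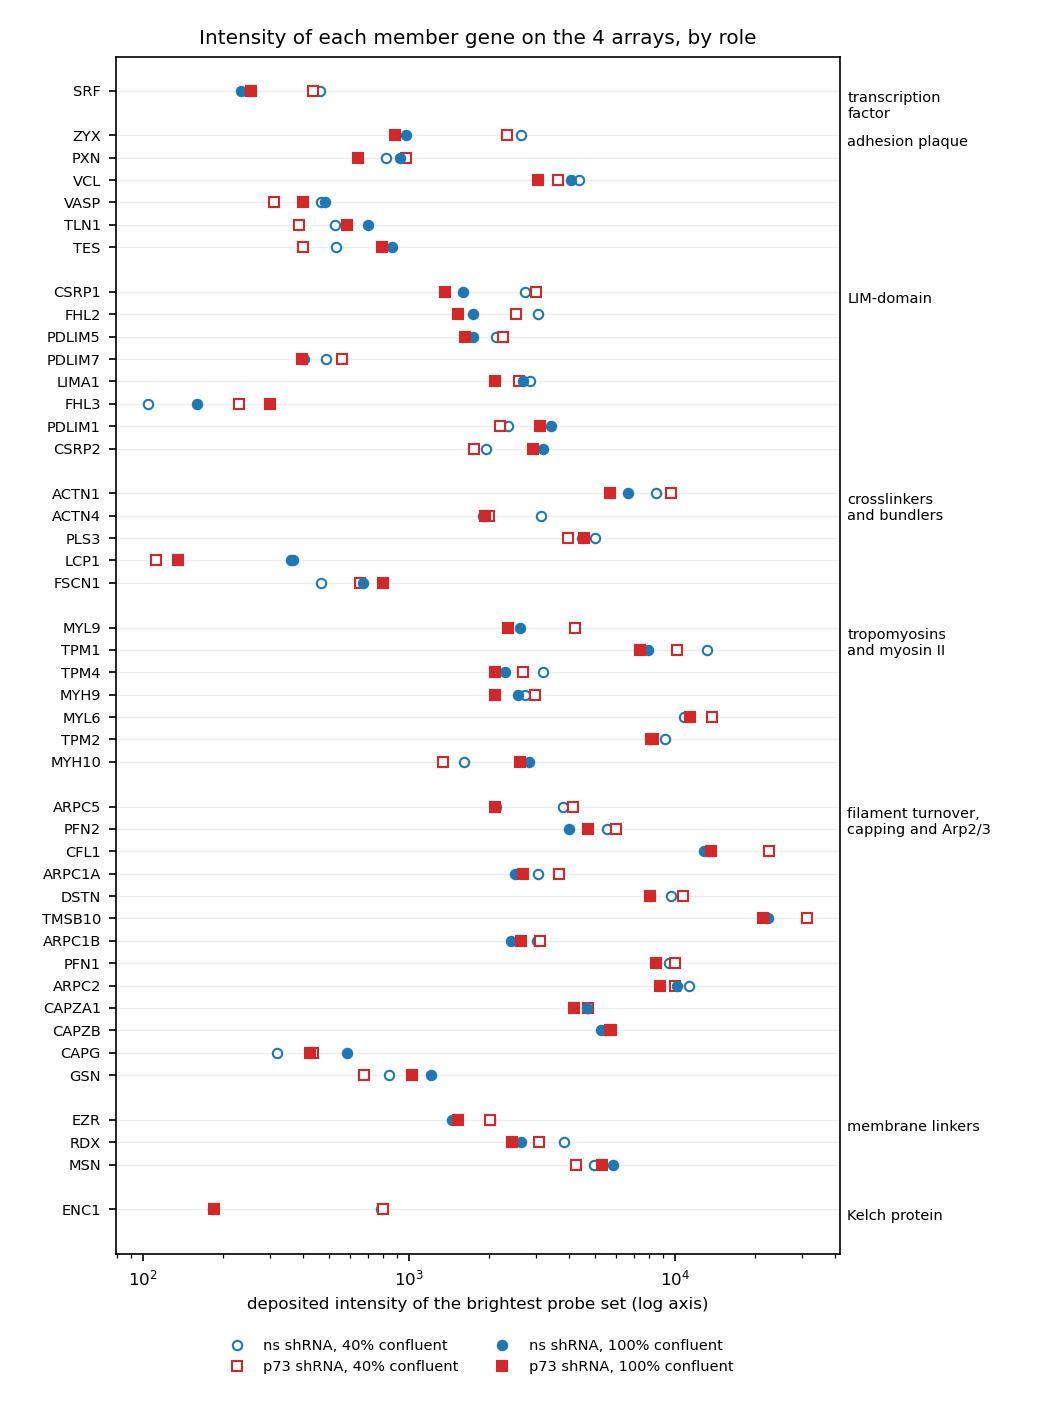
Deposited intensity (log axis) of the brightest probe set of each of the 44 genes on each of the 4 arrays, grouped by role; open symbols are 40% and filled symbols 100% confluence, circles ns and squares p73 shRNA. ENC1, ZYX and SRF have both filled symbols to the left of both open ones, and LCP1 and FHL3 have both squares well apart from both circles.

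SRF, which drives many genes of the list, was 1.8-fold lower in confluent cells on average. Its intensity in sparse cells was 463 with ns and 437 with p73 shRNA, and in confluent cells 234 and 256, so the stages did not overlap. The average log2 change was -0.85 (SE 0.21, limma adjusted p 0.000412). The dimmer SRF probe set, below the filter, was lower too, by -1.06 with ns and -0.50 with p73 shRNA. Between hairpins the SRF log2 ratio was -0.08 at 40% and 0.12 at 100%.

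The letters that SRF binds can be looked for in the promoters of the list, here the 250 bases before and 50 after each RefSeq start site in GRCh38.p14. RefSeq starts were at hand for 39 of the 44 genes, with 67 windows in all, and 7 windows of 5 genes held a CArG box (CC and GG around a run of A or T, a pattern that reads alike on both strands). That is 10.4% of these windows, against 1.29% of all 35116 windows of the same length. By gene it is 12.8% of the 39, against 1.7% of the 5716 genes tested on the arrays that have such windows. The 5 genes are SRF, FHL2, TPM4 and ACTN1, which fell at confluence, and TES, which rose. A box was found in 4 of 15 genes that fell, 1 of 6 that rose and 0 of 18 that did not pass. These counts rest on 5 genes, and a link between boxes and calls was not tested. For each gene 1 stretch with a box is shown because it is where the list's own transcription factor could be read, with each box in capitals and the rest in lower case. They lie at chr6:43171169-43171268 (plus strand, SRF), chr2:105438560-105438659 (minus strand, FHL2), chr19:16067320-16067419 (plus strand, TPM4), chr14:68977683-68977782 (minus strand, ACTN1) and chr7:116222703-116222802 (plus strand, TES), upstream of the start each belongs to.
SRF: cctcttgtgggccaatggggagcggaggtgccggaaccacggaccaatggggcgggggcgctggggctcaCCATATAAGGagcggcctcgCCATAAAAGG
FHL2: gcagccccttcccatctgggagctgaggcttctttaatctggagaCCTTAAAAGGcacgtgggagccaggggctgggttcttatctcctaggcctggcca
TPM4: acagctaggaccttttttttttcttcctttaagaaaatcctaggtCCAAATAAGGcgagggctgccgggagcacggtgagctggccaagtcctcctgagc
ACTN1: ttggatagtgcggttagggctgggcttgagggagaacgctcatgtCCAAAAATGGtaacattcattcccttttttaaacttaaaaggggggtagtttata
TES: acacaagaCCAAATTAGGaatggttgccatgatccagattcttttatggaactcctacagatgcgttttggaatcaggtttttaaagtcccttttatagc
The SRF promoter holds 2 boxes, whose first bases lie 30 and 10 bases before the start. FHL2 has 3 windows with a box, and the windows of its starts 1 and 3 overlap and share the box shown; start 2 has a box of its own in another stretch, which is not printed. A match is a description of letters and not a bound site, and the start site in use in these cells was not measured.

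Of the 6 adhesion plaque proteins 1 fell at confluence (16.7%) and 2 rose (33.3%), where 16.1% and 20.4% of all genes tested did. The counts by role, here and below, rest on few genes each and were not tested. Zyxin (ZYX), which gathers at adhesions under tension and recruits actin-assembly factors, fell: its intensities of 2641 (ns) and 2333 (p73 shRNA) at 40% became 978 and 883 at 100%. Both confluent arrays lay far below both sparse ones, with an average log2 change of -1.41 (SE 0.15, limma adjusted p 4.49e-18), or 2.65-fold lower. The second ZYX probe set gave -1.75. TES (testin), a LIM protein that binds zyxin, went the other way, from 532 and 400 to 863 and 793 (average 0.83, SE 0.18, limma adjusted p 4.02e-05). Its second probe set, at 0.52, did not pass with each probe set as its own feature. Talin (TLN1), the link from integrins to actin, rose from 529 and 385 to 702 and 584 (average 0.49, limma adjusted p 0.0254); this is the rise that did not pass after quantile normalization, at 0.44. The stages did not overlap for either gene. Vinculin (VCL) at -0.17, the scaffold paxillin (PXN) at -0.21 and the filament-elongation factor VASP at 0.20 did not pass. For PXN the ratio was 0.16 with ns and -0.59 with p73 shRNA.

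LIM-domain proteins, many of which sit on stress fibres and adhesions and in part also enter the nucleus, moved in both directions. Of 8 such genes 3 fell (37.5%) and 2 rose (25%), where 16.1% and 20.4% of all genes tested did. CSRP1, a cysteine-rich LIM protein of stress fibres, had 2720 (ns) and 2996 (p73 shRNA) at 40% and 1600 and 1366 at 100% (average -0.94, SE 0.15, limma adjusted p 4.32e-09). Its close relative CSRP2 had 1950 and 1754 at 40% and 3179 and 2927 at 100% (average 0.72, SE 0.15, limma adjusted p 9.88e-06). The relatives thus moved in opposite directions with either hairpin, and the second CSRP2 probe set rose too, at 0.68. FHL2, a four-and-a-half-LIM cofactor, went from 3061 and 2526 down to 1737 and 1530 (average -0.77, SE 0.15, limma adjusted p 2.72e-06). PDLIM1, which binds alpha-actinin, rose from 2353 and 2205 to 3419 and 3099 (average 0.51, limma adjusted p 0.00206), and its relative PDLIM5 fell by 0.38. PDLIM7 (-0.38), the actin-bundling LIMA1 (-0.19) and FHL3 (0.46) did not pass for confluence. With each probe set as its own feature, a dimmer PDLIM7 probe set fell (-0.76, limma adjusted p 0.00918), while another at -0.39 did not pass.

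Of the 5 crosslinking and bundling proteins 2 fell at confluence (40%), both of them alpha-actinins, and none rose. Over all genes tested 16.1% fell and 20.4% rose. ACTN1, the alpha-actinin of stress fibres and adhesions, fell from 8492 (ns) and 9670 (p73 shRNA) to 6675 and 5681 (average -0.56, SE 0.14, limma adjusted p 0.000328), and its other probe sets gave -0.75 and -0.88. ACTN4, the second non-muscle alpha-actinin, read 3123 on the ns array at 40% and 1990, 1905 and 1924 on the p73 shRNA array at 40%, the ns array at 100% and the p73 shRNA array at 100%. Its fall (average -0.38, limma adjusted p 0.0307) thus rests on 1 array, since the ratio was -0.71 with ns and -0.05 with p73 shRNA. The plastins PLS3 (0.02) and LCP1 (0.11) and the bundler fascin (FSCN1, 0.40) did not pass, and the second fascin probe set had the opposite sign, -0.43.

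**Figure D2:**
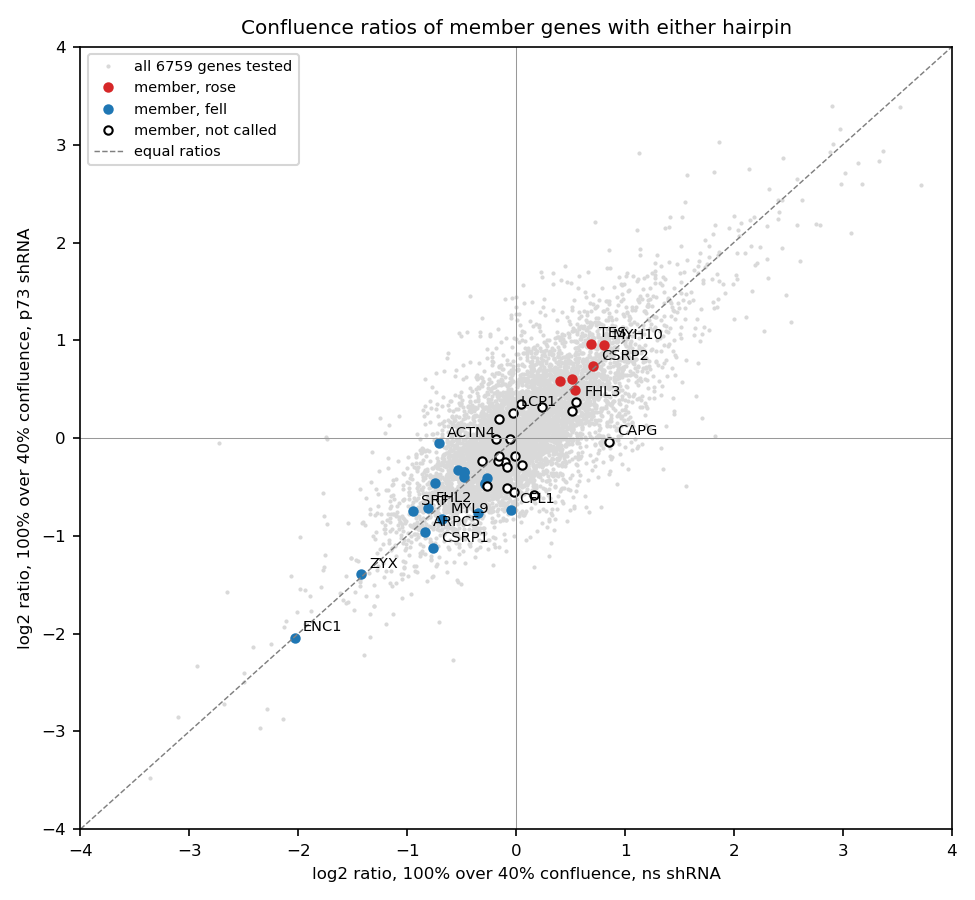
Log2 ratio of 100% over 40% confluence with ns shRNA (horizontal axis) and with p73 shRNA (vertical axis); grey points are the 6759 genes tested, coloured points the members called and open points those not called, and the dashed line marks equal ratios. ENC1 and ZYX lie at the lower left close to the line, while ACTN4 and CFL1 lie far from it, each low with 1 hairpin only.

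Of the 7 tropomyosin and myosin II genes, which make and load the contractile bundles, 3 fell (42.9%) and 1 rose (14.3%). Over all genes tested 16.1% fell and 20.4% rose. MYL9, a regulatory light chain of myosin II, went from 4200 (ns) and 4212 (p73 shRNA) down to 2620 and 2362 (average -0.76, SE 0.14, limma adjusted p 1.54e-06). MYH10, the heavy chain of non-muscle myosin IIB, rose from 1617 and 1340 to 2837 and 2603 (average 0.88, SE 0.15, limma adjusted p 6.08e-08), with 1.05 in its second probe set. Neither gene's stages overlapped. MYH9, the heavy chain of myosin IIA, did not pass (-0.30), nor did the essential light chain MYL6 (-0.11). TPM1, a tropomyosin that runs along the filament and guards it from severing, fell in all 4 of its probe sets by the fit on probe sets, but by amounts from -0.60 in the brightest to -1.67 in the probe set that fell most. The brightest, which stands for the gene, read 13207 (ns) and 10131 (p73 shRNA) at 40% and 7888 and 7369 at 100% (SE 0.14, limma adjusted p 8.17e-05), and the one that fell most read 6664 and 8316 at 40% and 2451 and 2223 at 100%. The stages did not overlap in either. TPM4 likewise fell by 0.41 in its brightest and by 1.02 in its other probe set. TPM2 did not pass, at -0.10. The isoforms that each probe set detects were not analysed here.

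Of the 13 proteins of filament turnover, capping and nucleation, 5 fell (38.5%) and 1 rose (7.69%), where 16.1% and 20.4% of all genes tested did. The median log2 ratio of the 13 was -0.28 and shrank to -0.04 after quantile normalization. ARPC5, a subunit of the branch-forming Arp2/3 complex, read 3793 (ns) and 4122 (p73 shRNA) at 40% and 2114 and 2109 at 100% (average -0.90, SE 0.14, limma adjusted p 7.35e-09). The other Arp2/3 subunits moved less: ARPC1A fell by 0.37, and ARPC1B (-0.28) and ARPC2 (-0.17) did not pass. Profilin 2 (PFN2), which hands actin monomers to growing ends, fell from 5538 and 5994 to 3978 and 4696 (average -0.41, limma adjusted p 0.011), and profilin 1 (PFN1) at -0.20 did not pass. Gelsolin (GSN), which severs and caps filaments, was the 1 that rose, from 844 and 675 to 1212 and 1029 (average 0.56, SE 0.17, limma adjusted p 0.00376).

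Cofilin (CFL1), the main severing factor of non-muscle cells, was set apart on 1 array. It read 22592 on the p73 shRNA array at 40% and 13242, 12811 and 13590 on the ns array at 40%, the ns array at 100% and the p73 shRNA array at 100%. Its called fall at confluence (average -0.39, limma adjusted p 0.0137) came from the p73 shRNA arrays, with -0.73 against -0.05 with ns. After quantile normalization the average was -0.08, which did not pass. The monomer-binding thymosin TMSB10 showed the like, with 31308 on the p73 shRNA array at 40% and 22305, 22015 and 21418 on the others, and was not called (-0.28). That array had the brightest top end. Destrin (DSTN), related to cofilin, fell by 0.34, and its other probe set (-0.21) did not pass in the fit on probe sets. The capping proteins CAPZA1 (-0.09), CAPZB (-0.03) and CAPG (0.41) did not pass, and for CAPG the ratio was 0.85 with ns and -0.04 with p73 shRNA.

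The linkers between membrane and actin, the ERM proteins, were lower for ezrin and radixin. Ezrin (EZR) read 2018 (ns) and 2019 (p73 shRNA) at 40% and 1446 and 1532 at 100% (average -0.44, limma adjusted p 0.0142), and all 4 of its probe sets above the filter fell by the fit on probe sets, by up to 0.83. Radixin (RDX) averaged -0.43 in its brightest probe set but -0.13 and -0.14 in the other pair, which did not pass. Moesin (MSN) did not pass, at 0.28.

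ENC1, a kelch-repeat protein that binds actin, had the largest confluence difference among the 44 genes. Its intensity was 787 with ns and 798 with p73 shRNA at 40%, and 184 and 185 at 100%. The hairpins gave nearly the same value at each stage, and the stages were 4.1-fold apart (average log2 change -2.04, SE 0.20, limma adjusted p 8.46e-22). The second ENC1 probe set fell by 1.02.

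**Figure D3:**
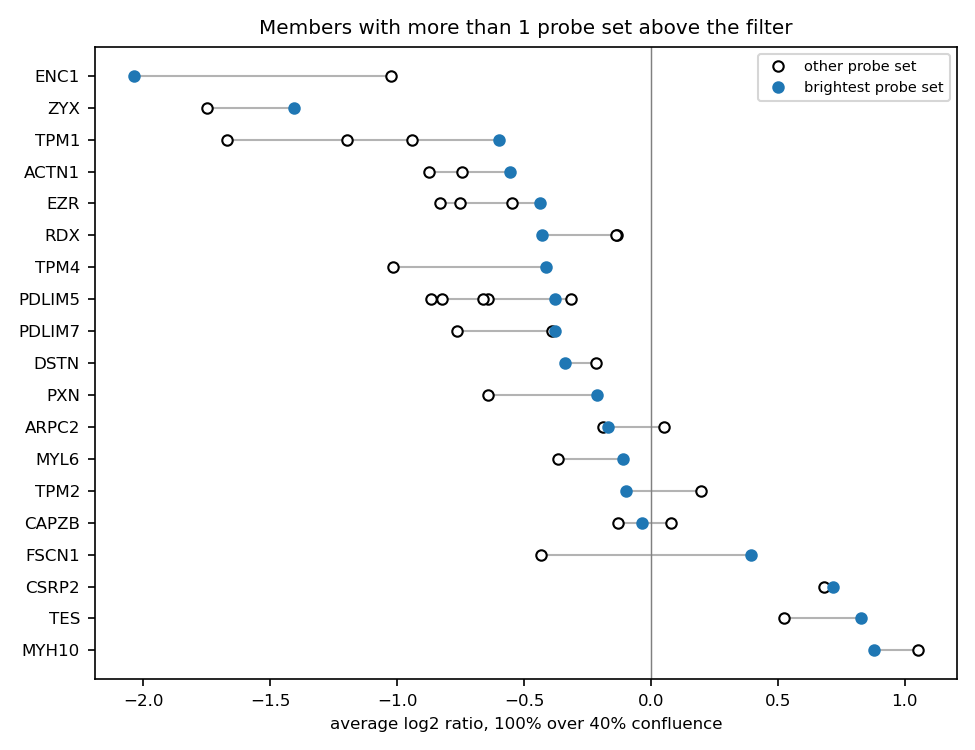
Average log2 ratio of 100% over 40% confluence for each probe set above the filter of the 19 members with more than 1; filled points are the brightest probe set, which stands for the gene in the tests, and open points the others. In 15 of the 19 all probe sets lie on the same side of 0, and ARPC2, CAPZB, FSCN1 and TPM2 straddle it.

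The probe sets of a gene can be set against each other in 19 members. For confluence the probe sets had the same sign in 15 of the 19, and in 7 of them for p73 shRNA. In a fit with each of 9952 probe sets as its own feature, 34 of the 76 member probe sets fell and 8 rose at confluence, where 15.7% of all probe sets fell and 19.6% rose; probe sets of a gene are not independent of each other. Some probe sets can bind transcripts of related genes or processed copies, which is a doubt above all for cofilin, thymosin, the light chain MYL6 and the tropomyosins.

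Whether targeting p73 shifts these genes was asked by setting the p73 hairpin against the control hairpin. In the additive model 1 of the 44 genes rose and 1 fell with p73 shRNA, which is 2.27% for each direction, where 1.14% of all genes tested rose and 1.58% fell, so that the count is near the background. LCP1, or L-plastin, a bundling protein best known from leukocytes, was the gene that fell. Sparse cells read 368 with ns and 112 with p73 shRNA, and confluent cells 359 and 136. Both p73 shRNA arrays lay below both ns arrays, with log2 ratios of -1.62 and -1.33 and an average of -1.48 (SE 0.24, limma adjusted p 6.77e-07). Without the brightness-dependent error the limma adjusted p was 0.000233. Between the stages LCP1 averaged 0.11, which did not pass.

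The markers of blood cells, where LCP1 is usually found, were at the bottom of the scale. The leukocyte gene PTPRC read 7.03 (ns) and 3.37 (p73 shRNA) at 40% and 35.2 and 13.4 at 100%, and all 5 measured blood markers lay below the filter. Their summed intensity was 78.9 and 51.8 at 40% and 144 and 88.7 at 100%. This sum was lower with p73 shRNA at both stages and higher at 100% confluence with both hairpins. With every marker below the filter, such differences lie near the floor and cannot be read as a change in blood cells. The source of the LCP1 signal was not tested.

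FHL3, a four-and-a-half-LIM protein like FHL2, was the gene that rose with p73 shRNA. It read 105 (ns) and 230 (p73 shRNA) at 40% and 159 and 300.2 at 100%. The hairpins did not overlap, with log2 ratios of 1.05 and 0.87. Their average of 0.96 passed (SE 0.26, limma adjusted p 0.0107). FHL3 has 1 probe set, dim on the ns array at 40%, where it lies just under the intensity of the filter. With the mean of each gene's probe sets as the measure, which leaves the FHL3 value as it is but changes the error, the limma adjusted p was 0.0531. FHL2 with p73 shRNA was at -0.28 and -0.18 and did not pass. Without the brightness filter, neither LCP1 nor FHL3 was called, with limma adjusted p of 0.146 and 0.437.

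**Figure D4:**
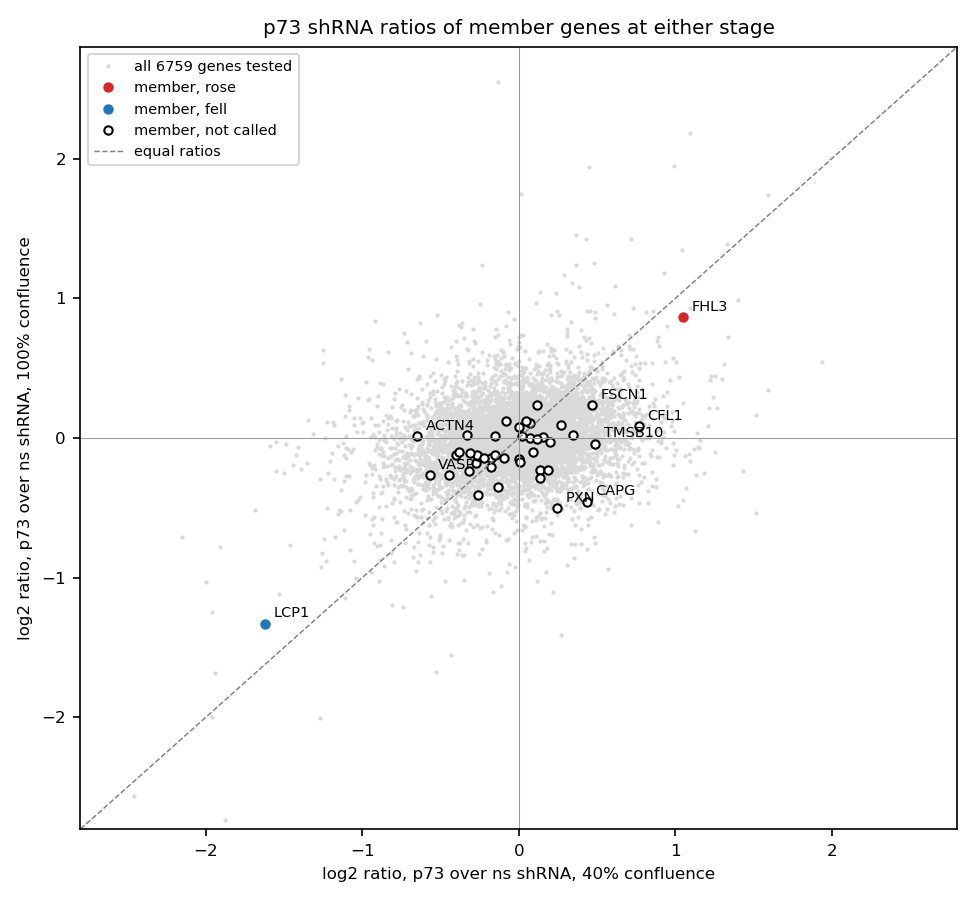
Log2 ratio of p73 shRNA over ns shRNA at 40% (horizontal axis) and at 100% confluence (vertical axis); grey points are the 6759 genes tested, coloured points the members called and open points those not called. LCP1 stands at the lower left and FHL3 at the upper right, and the other members gather around 0, with CFL1 at 0.77 and ACTN4 at -0.65 apart at 40% only.

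The other 42 genes did not pass for p73 shRNA. CFL1 came nearest, with log2 ratios of 0.77 and 0.09 (average 0.43, SE 0.13, limma adjusted p 0.0519), which again rests on its reading on the p73 shRNA array at 40%. All 6 adhesion plaque genes had an average below 0, from -0.42 for VASP to -0.13 for PXN, but none passed. The second TES probe set averaged 0.19, so for TES the sign depends on the probe set taken. VASP read 467 and 311 at 40% and 482 and 399 at 100%, so that its hairpins did not overlap. After quantile normalization all 6 plaque genes were still below 0 by their brightest probe set. Of the 13 turnover genes 9 had an average above 0, and 7 after quantile normalization. Of all 6759 genes tested 3418 averaged below 0 and 3341 above. These signs were not tested. Over all members the median log2 ratio was 0.00 at 40% and -0.11 at 100%, against 0.00 at both stages over all genes tested. The brightest probe set of PDLIM5, an adaptor between alpha-actinin and kinases, was at -0.01. A second one read 2553 and 1714 at 40% and 2374 and 1189 at 100%, and fell in the fit on probe sets (average -0.78, limma adjusted p 0.000119), while the others of this gene did not pass. The cause of this difference between probe sets was not tested.

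The p73 shRNA ratio differed most between the stages for CAPG (0.44 at 40% and -0.45 at 100%), PXN (0.24 and -0.50), CFL1 and ACTN4 (-0.65 and 0.01). With 1 array on each side these differences have no test.

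Other genes of the same machinery were taken from 4 lists set up by function, with 84 genes, of which 66 were tested. At confluence 16 of the 66 fell and 11 rose, which is 24.2% and 16.7%, where 16.1% of all genes tested fell and 20.4% rose. The median log2 ratio of the 66 was -0.09. The adhesion scaffold list, with 15.4% that fell and 23.1% that rose, was near the shares over all genes. So was the list of other actin assembly and bundling, with 16.7% in each direction. Among adhesion scaffold proteins 2 of 13 fell, the kindlin FERMT2 (-0.79) and the zyxin relative TRIP6 (-0.58), and 3 rose, the tensins TNS1 (1.45) and TNS3 (0.80) and the Rac exchange factor ARHGEF7 (0.62). TNS1 read 300.3 (ns) and 268 (p73 shRNA) at 40% and 766 and 827 at 100%. ARHGEF7 read 387 (ns) and 748 (p73 shRNA) at 40% and 786 and 887 at 100%. Its log2 ratio was 1.00 with ns and 0.24 with p73 shRNA, so the rise rests mainly on the ns array at 40%. In other actin assembly and bundling 4 of 24 fell, led by the coronin CORO1C (-1.22), the Arp2/3 subunit ARPC4 (-0.62) and the elongation factor ENAH (-0.49), and 4 rose, led by EVL (1.41), a relative of VASP and ENAH, the adducin ADD3 (1.36) and WASL (0.90), an activator of Arp2/3.

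Of the SRF cofactors and textbook SRF targets 6 of 14 fell at confluence and 2 rose. That is 42.9% and 14.3%, where 16.1% of all genes tested fell and 20.4% rose. The median log2 ratio of the list was -0.30. The matricellular genes CCN2 (-2.66) and CCN1 (-1.15) and the actin-binding TAGLN (-0.91) were lowest, and the immediate early factor EGR1 (2.06) and smooth muscle alpha-actin ACTA2 (0.82) rose. CCN2 read 3951 (ns) and 4079 (p73 shRNA) at 40% and 765 and 512 at 100%. The part of SRF in these changes was not tested. With p73 shRNA this list held 1 gene that rose, ACTB (0.53), and 2 that fell, ACTG2 (-2.51) and the calponin CNN1 (-0.84). The list was put together with earlier results of these arrays known. Of the adhesion scaffold genes 0 of 13 and of the other actin assembly genes 0 of 24 passed for p73 shRNA in limma, with 1 and 6 at an unadjusted p below 0.05, where 7 of the 44 members and 922 of all 6759 genes tested were below it. The call of ACTB was lost without the brightness-dependent error and after quantile normalization.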

How the data were processed

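The authors deposited 1 intensity per probe set and array; the software behind it and a genome build are not given in the sources used here. Per the labels, total RNA was extracted with trizol and labelled with biotin by the Affymetrix protocol. The values are linear, with trimmed means of 500.1 to 500.2, and were used as deposited; this scaling hides a change shared by most genes. Probe sets with 1 gene (19064) were named, 19052 with current symbols by Entrez ID; 1043 with several genes, 2108 with none listed and 62 controls were not. Values became log2(intensity + 11.6), the 20th percentile of all values, which understates ratios of dim genes. A gene took its brightest probe set and was tested when its mean was at or above 6.94 on that scale, the median over non-control probe sets.

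limma 3.58.1 in R 4.3.3 was fitted to 4 arrays with confluence and hairpin as terms, 1 residual degree of freedom and an intensity trend (two-sided, Benjamini-Hochberg, 0.05). Its prior degrees of freedom came out infinite, so a gene's error is that of its brightness; without the trend they were 15.8. The fit was also run on simulated arrays with independent errors and additive changes only. That run cannot check whether these 4 arrays meet such conditions. Ratios of single arrays have no test. Values on each array were given for SRF, members called for p73 shRNA, all 6 that rose and the 10 that fell most at confluence by the smaller ratio of both hairpins, and, chosen after their values were seen, ACTN1 and others where 1 array or probe set stood apart; of each pathway list up to 3 genes called in each direction; 1 of the 4 lists counts in the totals but is not reported here by gene. Promoter letters came from RefSeq (GRCh38.p14). Alternatives are in the closing section. Members and lists were chosen with earlier results of these data known.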

Additional observations from a re-analysis of the deposited data

How the results depend on the processing

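No paired analysis was possible because each group has 1 array and the labels give no replicate numbers; for the same reason no array could be left out of the model. Of the 24 members called for confluence, 10 kept direction and call in each setting in which they were tested. This counts 9 settings and leaves out the model without the hairpin term. The 10 were ARPC5, CSRP1, CSRP2, ENC1, FHL2, MYH10, MYL9, SRF, TES and ZYX. ENC1 and SRF were not tested with a filter at the 70th percentile. With each probe set as a feature, only the brightest probe set of a gene was followed here, so that setting does not check the others. The second TES probe set was not called in it (0.52, limma adjusted p 0.0911). No called member changed sign in any setting run. Only quantile normalization, another constant added to the intensity and the mean of probe sets could alter a member's average. In the other settings it was the same number, so its sign was fixed. The 18 falls at confluence became 10 without the brightness filter, 34 with each probe set as a feature (of 76), 9 without the intensity trend, 9 without the hairpin term and 7 by at least 1.5-fold in both ratios, and the 6 rises became 3 by that fold. The 2 members called for p73 shRNA became 0 without the brightness filter, 0 with a filter at the 70th percentile, where FHL3 and LCP1 were no longer tested, 1 when probe sets were averaged and 0 without the confluence term, where 2 members and 58 genes had an unadjusted p below 0.05 in limma. Without the brightness filter 5 of 44 members and 1040 of 11963 genes did so. Over all genes, the 184 called for p73 shRNA became 105 after quantile normalization, 4 without the filter, 40 with the mean of probe sets, 74 without the trend, 0 without the confluence term and 83 by fold, and the 2471 for confluence 1555 without the filter, 1345 without the hairpin term and 1057 by fold. The 4 pathway genes called for p73 shRNA became 2 after quantile normalization, by averaged probe sets, without the trend and by fold, 1 without the filter and 0 without the confluence term; the 27 for confluence became 52 with each probe set as a feature (of 123) and 17 by fold. The number of features tested also changed between some settings, and the cause of these differences was not tested. On some arrays FHL3 and LCP1 read near the intensity of the filter, and what this does to their calls was not tested.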
